A study of Rattus norvegicus with 12 samples.

Results

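Chondrocytes from spontaneously hypertensive rats (SHR) were compared with those of Wistar Kyoto rats (WKY) at 5 days of age. The comparison took the 6 libraries labelled 5 days, 3 of each strain, from 12 libraries in all, and covered the 13397 genes of 16770 in the count table that passed a filter on low counts. SHR is an inbred strain that develops high blood pressure without treatment, and WKY is the normotensive strain kept as its control. The 2 strains differ across the genome, so a difference between them cannot be assigned to a single allele here. All cultures were primary monolayers that had grown out of pieces of knee (femorotibial) cartilage in collagenase D at 0.5 or 3 mg/mL, and were kept in DMEM/F12 with 5% fetal bovine serum. The other 6 libraries came from SHR and WKY at 3 months and were used to estimate each gene's spread and for the comparison of ages at the end. The labels give no sex, do not tie the collagenase concentration to a sample and do not say whether replicates came from separate animals or cultures. The p-values thus rest on the spread between libraries, which may be technical.

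Articular chondrocytes lay down type II collagen and the proteoglycan aggrecan under the transcription factor Sox9. At the newborn age, knee cartilage still grows, and cells deeper in the tissue enlarge, mineralize their matrix and are replaced by bone. In monolayer with serum, chondrocytes are known to lose this program and to take up type I collagen and stress fibres.

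Within each strain, replicates 1 and 2 were batch 1 and replicate 3 was batch 2, and values below are always given in that order. CPM below is the count after scaling to library size. Total counts ran from 17839101 to 18968608 in these 6 libraries. Batch 2 differed from batch 1 in 6056 genes (45.2% of those tested), and batch was a term in the model. SHR replicates 1 and 2 lay closer to each other than any other pair of the same group and batch, with a biological coefficient of variation of 0.0535 against 0.417 for WKY replicates 1 and 2. Their counts still differed by more than sampling noise (chi-square of 4.13 per degree of freedom). That check covers counting error only, so it cannot tell separate cultures from repeat preparations of the same culture. They were kept as 2 libraries, and the count of calls is also given with both averaged. Summed Y-linked transcripts were at 0.537, 121 and 62.3 CPM in WKY and 0.89, 0.815 and 0.718 CPM in SHR, so WKY replicates 2 and 3 stood apart from the other 4 libraries. Both are WKY, so the presence of these transcripts partly goes with strain. The part of sex in the differences was not tested. Macrophage markers summed to 97.5, 19.8 and 23.1 CPM in WKY and 13.4, 13.8 and 21.1 CPM in SHR, with WKY replicate 1 highest. Markers of neutrophils, lymphocytes and red blood cells in the count table were at or near 0 in every library. The table holds only 4 of the 9 neutrophil and lymphocyte markers and 1 of the 5 red blood cell markers.

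By edgeR's quasi-likelihood test, 46 genes differed between the strains at a Benjamini-Hochberg adjusted p under 0.05, which is 0.343% of the genes tested. Of these, 20 were higher in SHR (0.149%) and 26 lower (0.194%). Every one of the 46 had the same direction within batch 1 and within batch 2. In 41 of them the 3 SHR libraries lay entirely above or entirely below the 3 WKY libraries, where over all genes tested 4.72% lay above and 4.8% below. With SHR replicates 1 and 2 averaged, 8 genes were called (0.0597%): Rpl30, Mettl2b, Atp11b, RT1-CE3, Septin5, LOC306079, LOC100362027 and LOC100364500. The 38 calls that were lost had edgeR adjusted p-values from 0.0578 to 0.253. With the replicate number as a block in place of the batch, 16 genes were called (0.119%), the same 8 and Galr2, LOC102548695, LOC690155, Ndufa10l1, Sema3e, Sh2d4a, Spopl and Tub, and the lost calls had edgeR adjusted p-values from 0.051 to 0.0923. The count was 14 without WKY replicate 3, 6, 10 and 20 without SHR replicates 1, 2 and 3, and 34 without either WKY replicate 1 or 2. It was 19 without either WKY replicate 1 or 2 at 3 months and 89 without SHR replicate 2 at 3 months, which enter only the spread and the batch term. With only the 6 samples at 5 days in the fit, 13 genes were called (0.097%), and 41 of the 46 lost their call, at edgeR adjusted p-values from 0.0504 (Mettl2b) to 0.149. The 5 that stayed were Atp11b, Septin5, LOC306079, Rpl30 and Sema3e. With DESeq2 381 genes were called (2.84%), the 46 among them. Without WKY replicates 2 and 3, the libraries with Y-linked transcripts, 8 of the 46 kept their call in a fit that left 1 WKY library: Rpl30, Mettl2b, Hmgb2, RT1-CE3, Atp11b, Tub, LOC100362027 and LOC690155. The plot of called genes shows their levels in each library.

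**Figure D1:**
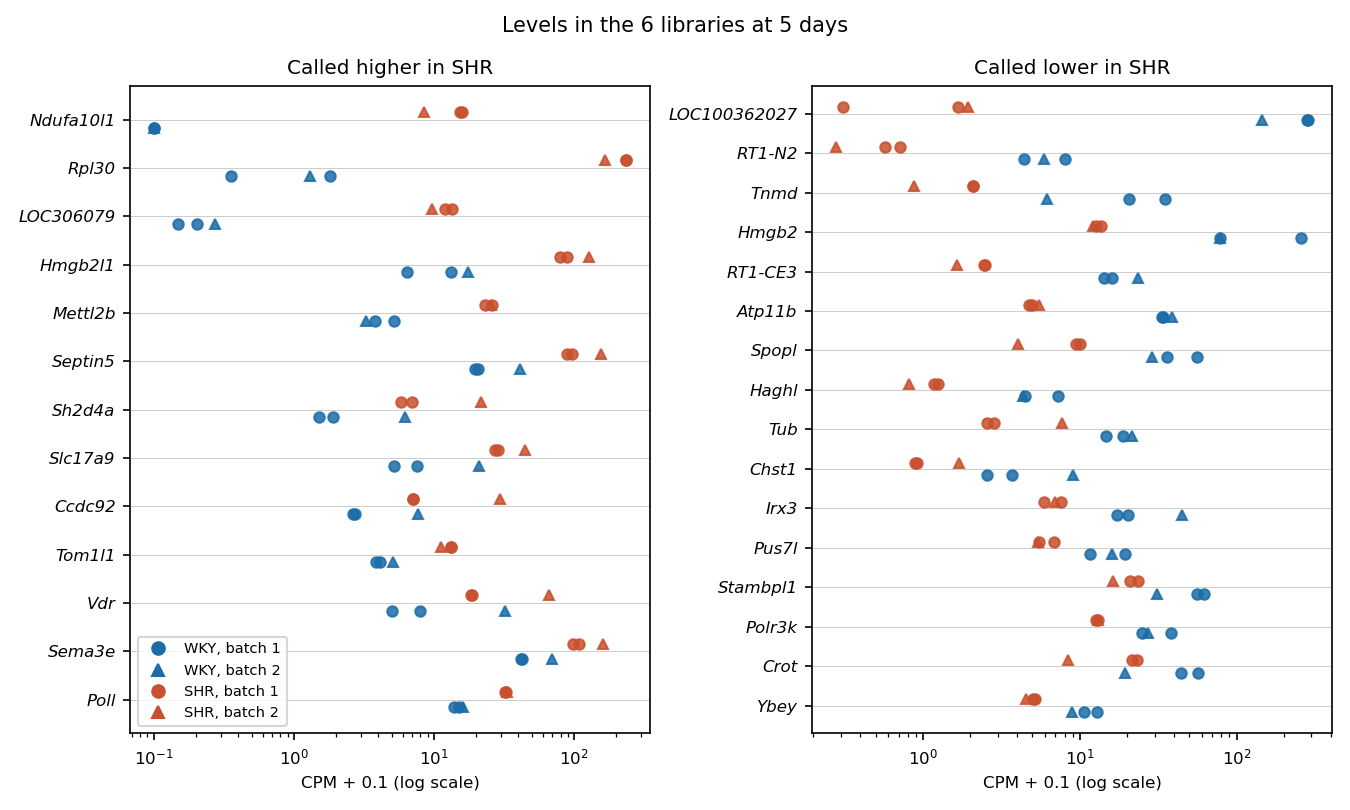
Levels of called genes in the 6 libraries at 5 days, in CPM with 0.1 added, on a log axis, with SHR in red and WKY in blue, and batch 2 as triangles. The 13 genes on the left were called higher in SHR and the 16 on the right lower, and in all 29 the strains do not overlap within either batch.

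Among genes called higher in SHR, 4 code for proteins of membrane traffic, the cytoskeleton or RNA modification. Mettl2b (gene 363687), a tRNA methyltransferase, was at 5.08, 3.66 and 3.15 CPM in WKY and 22.9, 25.9 and 25.6 CPM in SHR. Its WKY and SHR libraries were far apart, and neither strain varied much between batches (log2 2.66, SE 0.20, edgeR adjusted p 0.00112). Septin5 (gene 116728), a filament-forming GTP-binding protein, was at 20.4, 19.5 and 40.9 CPM in WKY and 97.1, 89.2 and 155 CPM in SHR. The batch 2 library was the highest of each strain, and SHR was higher in each batch (log2 2.14, SE 0.23, edgeR adjusted p 0.0088). Tom1l1 (gene 287622), an adaptor of endosomal sorting, was at 4.01, 3.77 and 5.03 CPM in WKY and 13.1, 13.2 and 11.1 CPM in SHR, with no overlap (log2 1.59, SE 0.26, edgeR adjusted p 0.0391). Slc17a9 (gene 362287), the transporter that loads ATP into secretory vesicles, was at 7.52, 5.11 and 20.7 CPM in WKY and 27.1, 28.4 and 44.6 CPM in SHR. All SHR values were above all WKY values, although batch 2 of WKY came near batch 1 of SHR (log2 1.75, SE 0.26, edgeR adjusted p 0.0289). In the 6 fits that each left out 1 library at 5 days, Mettl2b was called in 6, Septin5 in 4, Tom1l1 in 1 and Slc17a9 in 2, with edgeR adjusted p-values of up to 0.0116, 0.0514, 0.211 and 0.132. With SHR replicates 1 and 2 averaged, the adjusted p was 0.00495, 0.049, 0.209 and 0.138 in the same order.

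Sema3e (gene 296789), a secreted semaphorin that guides vessels and axons through plexin D1, was at 41.4, 42.5 and 69 CPM in WKY and 108, 98.7 and 162 CPM in SHR. Every SHR library was above every WKY library (log2 1.28, SE 0.14, edgeR adjusted p 0.0088), and the call held in 4 of the 6 fits without 1 library (adjusted p of up to 0.0683). Poll (gene 361767), a DNA polymerase of repair, varied little across batches, at 13.9, 14.9 and 15.9 CPM in WKY and 32, 32.8 and 33.2 CPM in SHR (log2 1.13, SE 0.16, edgeR adjusted p 0.0245). Sh2d4a (gene 306376), an adaptor with an SH2 domain, was at 1.42, 1.81 and 6.06 CPM in WKY and 5.71, 6.83 and 21.6 CPM in SHR. Its batch 2 WKY library lay within the range of batch 1 SHR, while within each batch SHR was higher (log2 1.91, SE 0.25, edgeR adjusted p 0.0204). Ccdc92 (gene 100036765), a coiled-coil protein, was at 2.54, 2.63 and 7.55 CPM in WKY and 6.97, 6.98 and 29.4 CPM in SHR, its batch 2 WKY library just above batch 1 of SHR (log2 1.63, SE 0.25, edgeR adjusted p 0.0301). Poll was called in 0 of the 6 fits without 1 library, Sh2d4a in 0 and Ccdc92 in 0, with edgeR adjusted p-values of up to 0.132, 0.102 and 0.139. With the averaged pair the adjusted p was 0.0578 for Sema3e, 0.138 for Poll, 0.0929 for Sh2d4a and 0.124 for Ccdc92. Casq2, a calcium-binding protein of the sarcoplasmic reticulum that was named after its values were seen, was at 2, 1.55 and 6.86 CPM in WKY and 43.9, 40 and 50.7 CPM in SHR and missed the threshold (log2 3.92, SE 0.67, edgeR adjusted p 0.0537).

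Among genes called lower in SHR, several act on proteins, lipids or RNA inside the cell. Atp11b (gene 361929), a phospholipid flippase, was at 34.1, 33.3 and 38.7 CPM in WKY and 4.87, 4.64 and 5.44 CPM in SHR, a narrow range in each strain (log2 -2.83, SE 0.23, edgeR adjusted p 0.00135). Spopl (gene 296532), an adaptor of a cullin ubiquitin ligase, was at 36, 56.1 and 29 CPM in WKY and 9.95, 9.37 and 3.95 CPM in SHR (log2 -2.46, SE 0.29, edgeR adjusted p 0.0108). Stambpl1 (gene 687696), a deubiquitinating enzyme, was at 61.7, 55.6 and 31 CPM in WKY and 20.7, 23.4 and 16.1 CPM in SHR (log2 -1.27, SE 0.18, edgeR adjusted p 0.0245). The strains did not overlap in these 3 genes. Crot (gene 83842), a carnitine acyltransferase of peroxisomes, was at 44.4, 56.5 and 19.3 CPM in WKY and 23.1, 21.4 and 8.37 CPM in SHR. Its batch 2 WKY library lay below both batch 1 SHR libraries, so the strains overlapped across batches and not within them (log2 -1.18, SE 0.18, edgeR adjusted p 0.0289). Of genes for RNA, Polr3k (gene 366277), a subunit of RNA polymerase III, was at 37.9, 25 and 27.1 CPM in WKY and 12.6, 12.9 and 12.9 CPM in SHR (log2 -1.22, SE 0.20, edgeR adjusted p 0.0385). Pus7l, a pseudouridine synthase, had a log2 of -1.42 (edgeR adjusted p 0.0426) and Ybey, an endoribonuclease, of -1.14 (adjusted p 0.032), both with no overlap. In the 6 fits without 1 library, Atp11b was called in 6, Spopl in 2, Stambpl1 in 1, Crot in 0, Polr3k in 1, Pus7l in 1 and Ybey in 1. Apart from Atp11b, their adjusted p-values in those fits ran up to 0.0927 for Spopl, 0.144 for Stambpl1, 0.169 for Crot and 0.255 for Pus7l.

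Tub (gene 25609), the tubby protein that helps to carry receptors into the primary cilium, was at 18.9, 14.7 and 21.4 CPM in WKY and 2.46, 2.75 and 7.59 CPM in SHR. All SHR libraries were below all WKY libraries (log2 -2.29, SE 0.28, edgeR adjusted p 0.0108). Chst1 (gene 295934), a sulfotransferase that sulfates keratan sulfate, a glycan of cartilage proteoglycans, was at 3.62, 2.48 and 8.92 CPM in WKY and 0.786, 0.815 and 1.61 CPM in SHR (log2 -2.11, SE 0.29, edgeR adjusted p 0.0237). Haghl, a relative of a glyoxalase, was at 4.35, 7.22 and 4.23 CPM in WKY and 1.15, 1.07 and 0.718 CPM in SHR (log2 -2.42, SE 0.35, edgeR adjusted p 0.0259). Tub was called in 4 of the 6 fits without 1 library, Chst1 in 1 and Haghl in 1, with edgeR adjusted p-values of up to 0.102, 0.126 and 0.151. With the averaged pair the adjusted p was 0.108, 0.131 and 0.138. A further group of called genes had a mean under 5 CPM in the higher strain and lay outside the rule for naming. Of these Galr2, a galanin receptor, was at 2.39, 1.44 and 1.2 CPM in WKY and 0.209, 0.153 and 0.0598 CPM in SHR, and Tnnt2, cardiac troponin T, at 0.147, 0.258 and 0.172 CPM in WKY and 1.41, 1.58 and 3.47 CPM in SHR, where few counts stand behind each value.

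Several of the largest differences belonged to genes named as a copy or relative of another gene, or to that other gene. Reads can be assigned to the partner where such copies are alike, so these levels are uncertain. Their sequences were not compared here. Rpl30, a ribosomal protein gene, was at 1.71, 0.258 and 1.2 CPM in WKY and 236, 236 and 166 CPM in SHR. LOC100362027, named Rpl30l2 in a RefSeq gene list of the later assembly GRCr8, was at 279.9, 287 and 145 CPM in WKY and 0.209, 1.58 and 1.85 CPM in SHR, the reverse order. Summed per library, the pair was at 282, 287 and 146 CPM in WKY and 236, 237 and 168 CPM in SHR, and the strains overlapped. Hmgb2, a chromatin protein, was at 259, 78.2 and 77.9 CPM in WKY and 13.6, 12.6 and 12.1 CPM in SHR, and its relative Hmgb2l1 at 13.1, 6.3 and 17.5 CPM in WKY and 89, 79.8 and 128 CPM in SHR. Their sum was at 273, 84.5 and 95.4 CPM in WKY and 103, 92.4 and 141 CPM in SHR, again with overlap. LOC306079, named Rpl14l1 in that list, was at 0.0489, 0.103 and 0.172 CPM in WKY and 11.8, 13.3 and 9.51 CPM in SHR. Ndufa10l1, a relative of a mitochondrial complex I gene, had 741 counts in SHR and 0 in WKY, at least 244-fold higher against a floor of 3 counts over the group. No partner was set beside LOC306079 or Ndufa10l1. The counts rest on the assembly Rnor_6.0. Whether sequence differences between the strains moved them was not tested.

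Of 18 cartilage matrix genes tested, 0 were called, 10 were higher in SHR within batch 1 and 17 within batch 2. The 22 genes of this list in the table summed to 1054, 1477 and 9926 CPM in WKY and 2785, 2907 and 35408 CPM in SHR. In the model 13 of the 18 had positive log2 fold changes, with a median of 0.92 against -0.01 over all genes tested (0.47 in batch 1 and 1.34 in batch 2). The median was 0.428 without SHR replicate 3 and 1.46 without WKY replicate 3. The strains overlapped in every member, and batch 2 lay above batch 1 (median log2 of 2.94 between batches). Col2a1, the type II collagen that forms the fibrils of cartilage, was at 49.1, 10 and 5723 CPM in WKY and 621, 674 and 24551 CPM in SHR (log2 4.14, SE 1.32, edgeR adjusted p 0.305). Col9a1, a collagen on the surface of type II fibrils, was at 2.1, 0.258 and 257 CPM in WKY and 52.8, 51.7 and 1569 CPM in SHR (log2 4.93, SE 1.04, edgeR adjusted p 0.122). Col9a3, from the same collagen, was at 1.07, 0.206 and 67.9 CPM in WKY and 2.09, 2.75 and 316 CPM in SHR (log2 2.04, SE 0.37, edgeR adjusted p 0.0677). Acan, the core protein of aggrecan, was at 187, 15 and 1002 CPM in WKY and 319, 309 and 2453 CPM in SHR, with WKY replicate 2 far below the other libraries (log2 1.51, SE 1.30, edgeR adjusted p 0.819). Cilp2, a protein of the cartilage interterritorial matrix, was at 1.42, 0.98 and 10.6 CPM in WKY and 7.65, 8.1 and 33 CPM in SHR (log2 2.38, SE 0.51, edgeR adjusted p 0.122). Comp, which binds collagen fibrils, was at 11.6, 8.57 and 83.5 CPM in WKY and 15.6, 17.7 and 193 CPM in SHR (log2 0.95, SE 0.57, edgeR adjusted p 0.681). The genes named so far have positive log2 fold changes, and 5 of the 18 had negative ones. Hapln1 and Ucma, named after their values were seen, were lower in SHR within batch 1 and higher in batch 2. Hapln1 was at 16.7, 13.4 and 99.7 CPM in WKY and 8.38, 6.93 and 254 CPM in SHR. Ucma was at 3.81, 1.5 and 24 CPM in WKY and 0.576, 0.917 and 43.5 CPM in SHR. In these bulk libraries, fewer cells that make a transcript and less of it per cell cannot be told apart.

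Of 12 chondrocyte transcription factors tested, 11 had positive log2 fold changes (median 0.53), none was called and 2 lay above WKY in every library, against 4.72% of all genes tested. Sox9, which switches on Col2a1 and Acan, was at 13.3, 8.82 and 84.4 CPM in WKY and 17.9, 15.1 and 179.8 CPM in SHR, higher in SHR within each batch and not called (log2 0.78, SE 0.45, edgeR adjusted p 0.664). Its partner Sox6 was at 6.4, 7.12 and 23.8 CPM in WKY and 8.96, 8.4 and 42 CPM in SHR (log2 0.52, SE 0.24, edgeR adjusted p 0.533). Col1a1, the type I collagen of fibrous tissue, was at 11916, 15479 and 24698 CPM in WKY and 19532, 22385 and 40725 CPM in SHR (log2 0.65, SE 0.34, edgeR adjusted p 0.618), and the 18 genes of fibrous tissue matrix had a median of 0.35. Within that list Dcn, the small proteoglycan decorin, was at 95.2, 16.7 and 17 CPM in WKY and 1.2, 2.14 and 5.38 CPM in SHR, with every SHR library below every WKY library and a wide error (log2 -4.01, SE 1.71, edgeR adjusted p 0.493). Among 18 genes of collagen processing (median 0.23, 0.107 without SHR replicate 3 and 0.119 without WKY replicate 3, 0 called), the lysyl hydroxylase Plod2 was at 302, 223 and 453 CPM in WKY and 478, 465 and 667 CPM in SHR, with no overlap (log2 0.75, SE 0.18, edgeR adjusted p 0.164). The plot of tissue genes shows Col2a1, Col9a3, Acan, Comp and Sox9 apart by batch first and by strain within batch. Batch 2 holds 1 library of each strain, and other cartilage matrix genes, such as Hapln1 and Ucma, were lower in SHR within batch 1.

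**Figure D2:**
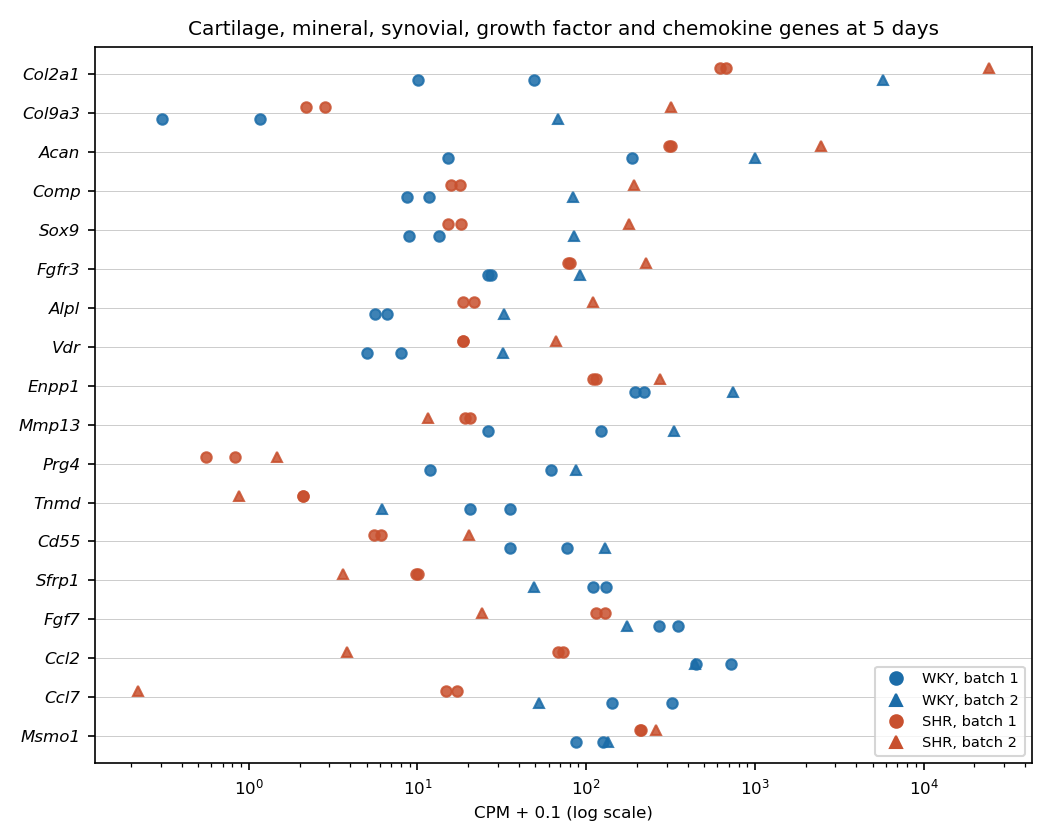
Levels of 18 genes of cartilage, mineralization, the synovial lining, growth factors and chemokines in the 6 libraries at 5 days, in CPM with 0.1 added, on a log axis. Cartilage genes (Col2a1 to Comp) are highest in the batch 2 libraries (triangles), while Prg4, Tnmd, Cd55, Sfrp1, Ccl2 and Ccl7 are lower in all 3 SHR libraries (red) than in all 3 WKY libraries (blue).

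Among genes that act on mineral in cartilage, Vdr and Enpp1 were called. Vdr (gene 24873), the receptor through which vitamin D acts on transcription, was at 7.87, 4.9 and 32.1 CPM in WKY and 18.5, 18.4 and 65.9 CPM in SHR. The batch 2 WKY library was above both batch 1 SHR libraries, and SHR was higher within each batch (log2 1.38, SE 0.22, edgeR adjusted p 0.0358). No other gene of the vitamin D list was called (1 of 12 tested against 0.343% of all genes tested, 7 positive). Enpp1 (gene 85496), which makes pyrophosphate, an inhibitor of mineral growth, was at 219, 194 and 743 CPM in WKY and 115, 109 and 275 CPM in SHR. It was lower in SHR within each batch (log2 -1.08, SE 0.17, edgeR adjusted p 0.0358). Alpl, the phosphatase that breaks pyrophosphate down, was at 6.5, 5.47 and 32.5 CPM in WKY and 18.6, 21.6 and 109 CPM in SHR, higher in SHR within each batch, and missed the threshold (log2 1.74, SE 0.31, edgeR adjusted p 0.0654). Vdr was called in 1 and Enpp1 in 1 of the 6 fits without 1 library (adjusted p of up to 0.198 and 0.222), and with the averaged pair the adjusted p was 0.201 and 0.206.

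Of 11 genes tested for phosphate and pyrophosphate handling, 9 had negative log2 fold changes, with a median of -0.28. It was -0.518 without SHR replicate 3, -0.476 without WKY replicate 2 and -0.157 without WKY replicate 3. Enpp3, a relative of Enpp1, was at 25.2, 61.6 and 12.8 CPM in WKY and 11.9, 11.4 and 4.96 CPM in SHR, and Nt5e, which makes adenosine at the cell surface, at 32.4, 12.3 and 13 CPM in WKY and 8.27, 7.54 and 9.15 CPM in SHR. Both had all SHR libraries below all WKY libraries and neither was called (adjusted p 0.351 and 0.507). The list of hypertrophy genes had 11 tested, 0 called and a median of 0.67 (0.68 in batch 1 and 0.14 in batch 2), with 6 positive. That median was 0.345 without SHR replicate 3 and changed sign, to -0.135, without WKY replicate 2. Runx2, a master regulator of hypertrophy and bone, was at 12.6, 9.24 and 33.6 CPM in WKY and 18.2, 19.7 and 47.1 CPM in SHR (log2 0.68, SE 0.39, edgeR adjusted p 0.667). Mmp13, the collagenase of hypertrophic cartilage, was at 122, 26.2 and 332 CPM in WKY and 19.1, 20.4 and 11.4 CPM in SHR, all SHR libraries below all WKY libraries (log2 -2.86, SE 1.00, edgeR adjusted p 0.368). Col10a1, the defining collagen of hypertrophic chondrocytes, was at 0, 0.103 and 0.229 CPM in WKY and 0.314, 0.153 and 1.5 CPM in SHR and did not pass the filter.

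Of 6 markers of joint tissues beside cartilage tested, 4 had negative log2 fold changes and 1 was called, against 0.343% of all genes tested. Tnmd (gene 64104), tenomodulin of tendon and ligament cells, was at 20.5, 35.1 and 6.06 CPM in WKY and 1.99, 1.99 and 0.777 CPM in SHR. All SHR libraries were below all WKY libraries (log2 -3.55, SE 0.37, edgeR adjusted p 0.0339). The call was lost in each of the 6 fits without 1 library, at edgeR adjusted p-values from 0.0686 to 0.264. Prg4, the lubricin of the synovial lining and the cartilage surface, was at 11.7, 62.1 and 87.2 CPM in WKY and 0.733, 0.458 and 1.38 CPM in SHR and missed the threshold (log2 -6.21, SE 1.12, edgeR adjusted p 0.0677). Cd55, a complement regulator of lining fibroblasts, was at 76.5, 35.3 and 129 CPM in WKY and 5.45, 6.01 and 20 CPM in SHR (log2 -2.98, SE 0.92, edgeR adjusted p 0.289). Scx, the transcription factor of tendon, had the reverse order at 26, 6.09 and 29.1 CPM in WKY and 29.9, 34 and 40.4 CPM in SHR (log2 0.82, SE 0.40, edgeR adjusted p 0.579). Summed, the 7 synovial and tendon markers in the table were at 285, 188 and 284 CPM in WKY and 72.7, 76.5 and 108 CPM in SHR. Fibroblast markers summed to 1041, 1625 and 1088 CPM and 842, 809.6 and 807 CPM, and 7 of 8 tested had negative log2 fold changes (median -1.32, -0.328 without WKY replicate 2, 0 called). Whether the mix of cells on the explants stood behind any gene here was not tested.

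Inflammatory genes were at lower values in SHR, with no gene called. Of 33 genes of cytokines and the NF-kB response tested, 31 had negative log2 fold changes, with a median of -1.11 (-0.75 in batch 1 and -1.91 in batch 2). In 12 of the 33, all SHR libraries lay below all WKY libraries, against 4.8% of all genes tested, and in 0 above. Ccl2, a chemokine that draws monocytes, was at 725, 447 and 440.3 CPM in WKY and 73, 67.8 and 3.71 CPM in SHR. SHR replicate 3 was lowest, and the batch 1 SHR libraries were also well below WKY (log2 -3.68, SE 0.94, edgeR adjusted p 0.193). Ccl7, a related chemokine, was at 321, 142 and 52.6 CPM in WKY and 17, 14.6 and 0.12 CPM in SHR (log2 -4.56, SE 0.96, edgeR adjusted p 0.122). Csf1, the growth factor of macrophages, was at 1033, 1207 and 1059.8 CPM in WKY and 689, 686 and 408 CPM in SHR (log2 -0.88, SE 0.27, edgeR adjusted p 0.291). Nfkbie, an inhibitor of NF-kB that is itself induced by it, was at 16.9, 20.8 and 34.5 CPM in WKY and 13.7, 12.3 and 10.2 CPM in SHR (log2 -0.90, SE 0.30, edgeR adjusted p 0.336). By DESeq2, Ccl2, Ccl7 and Csf1 passed 0.05 (adjusted p 0.000211, 7.42e-05 and 0.0469) and Nfkbie did not (0.102). By limma-voom none of them passed (adjusted p 0.128, 0.175, 0.23 and 0.27 in the same order). With SHR replicates 1 and 2 averaged, the edgeR adjusted p was 0.505, 0.414, 0.57 and 0.604.

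Macrophage markers were highest in WKY replicate 1. Summed, the cytokine and NF-kB genes were at 4070.3, 7281 and 4205 CPM in WKY and 3157, 3106 and 843 CPM in SHR. Their highest library was WKY replicate 2. Lyz2 was at 39.8, 0.258 and 0.858 CPM in WKY and 0.105, 0.204 and 0.957 CPM in SHR and Adgre1 at 9.82, 0.774 and 1.43 CPM in WKY and 0, 0 and 0.12 CPM in SHR, so WKY replicate 1 stood apart. The part of these cells in the differences was not tested. Without that library the median of the 33 cytokine genes was -1.16, and over the 6 fits without 1 library it ran from -1.4 to -0.911. Of 23 matrix proteases and inhibitors tested, 0 were called, 16 had negative and 7 positive log2 fold changes. In 5 all SHR libraries lay below all WKY libraries (4.8% of all genes tested) and in 1 above (4.72%). The median was -0.46, -0.184 without SHR replicate 3 and 0.000976 without WKY replicate 2. Mmp3, stromelysin, was at 179.7, 106 and 149 CPM in WKY and 18.4, 19.8 and 1.91 CPM in SHR (log2 -3.45, SE 1.15, edgeR adjusted p 0.336), and Mmp10, its close relative, at 23.2, 14.9 and 12.1 CPM in WKY and 2.46, 2.8 and 0.0598 CPM in SHR (log2 -3.31, SE 1.10, edgeR adjusted p 0.336). Mmp12, the macrophage elastase, was at 49.1, 0.774 and 2.17 CPM in WKY and 0, 0.306 and 0.419 CPM in SHR, again with WKY replicate 1 far above the rest.

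Binding motifs were read in the promoters of the inflammatory genes, from RefSeq promoter sequences on the assembly GRCr8, which cover 250 bases before and 50 after the start of a gene. The NF-kB motif was searched on both strands as GGG, any 2 bases and TTTCC. It was found in 9 of the 24 cytokine and NF-kB genes tested that had a promoter sequence. The share was 1.79% of the 10523 tested genes with one, and 1.62% of all 27457 genes with one. The 9 had a median log2 fold change of -0.97 and the 15 without a match of -1.20. A pair of these promoters, chosen after values were seen, is shown around the motif, which stands in capitals. The stretch of Cxcl2 holds a second match, in lower case. That of Il6, an interleukin of the acute phase, lies at chr4:5894609-5894668, minus strand, and that of Cxcl2, a neutrophil chemokine, lies at chr14:17467295-17467354, minus strand.
Il6: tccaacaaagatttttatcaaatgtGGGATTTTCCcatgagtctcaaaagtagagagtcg
Cxcl2: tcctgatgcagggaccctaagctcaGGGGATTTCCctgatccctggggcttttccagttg
A match is a run of letters and does not show that the factor binds there.

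Interferon-stimulated genes had a median of -0.76 over 28 tested (-0.54 in batch 1 and -0.68 in batch 2). Of the 28, 23 had negative log2 fold changes and 1 was called, against 0.343% of all genes tested. In 7 of the 28 all SHR libraries lay below all WKY libraries, against 4.8% of all genes tested, and in 0 above. Ifi44l (gene 310968), an interferon-induced gene, was called (edgeR adjusted p 0.0252) at 1.47, 3.87 and 0.4 CPM in WKY and 0.105, 0 and 0 CPM in SHR. It rested on 112 counts in WKY and 2 in SHR, a ratio of 56.8 with a 95% counting interval from 15.4 to 475. Parp14, a mono-ADP-ribosyltransferase, was at 27.4, 45.4 and 20.2 CPM in WKY and 20.2, 19.4 and 6.34 CPM in SHR (log2 -1.10, SE 0.24, edgeR adjusted p 0.128). Bst2, tetherin, which holds budding virions at the membrane, was at 2.78, 1.96 and 0.572 CPM in WKY and 0.367, 0.255 and 0.12 CPM in SHR (log2 -2.76, SE 0.64, edgeR adjusted p 0.151). Xaf1, a pro-apoptotic zinc finger protein, was at 5.42, 7.74 and 6.06 CPM in WKY and 3.56, 3.72 and 0.718 CPM in SHR (log2 -1.46, SE 0.39, edgeR adjusted p 0.213). Ifi44l was called in 1 of the 6 fits without 1 library (adjusted p of up to 0.128).

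These 4 genes carry the core of the interferon-stimulated response element, the site of the factor ISGF3, in the same promoter window. The motif was searched on both strands as GAAA, any 2 bases and GAAA. It was found in 13 of the 19 interferon genes tested that had a promoter sequence. The share was 3.16% of the 10523 tested genes with one, and 4.12% of all genes with one. The 13 had a median log2 fold change of -0.80 and the 6 without a match of -0.71. The stretches, on GRCr8 with the motif in capitals, lie at chr2:243328639-243328698, plus strand, for Ifi44l, chr11:78408033-78408092, plus strand, for Parp14, chr16:18255064-18255123, minus strand, for Bst2, and chr10:57415899-57415934, plus strand, for Xaf1.
Ifi44l: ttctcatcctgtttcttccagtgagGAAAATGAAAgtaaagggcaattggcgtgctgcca
Parp14: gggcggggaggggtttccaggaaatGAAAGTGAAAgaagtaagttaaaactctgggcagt
Bst2: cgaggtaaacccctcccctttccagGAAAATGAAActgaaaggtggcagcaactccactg
Xaf1: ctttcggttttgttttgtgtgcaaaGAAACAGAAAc
Ifi44l and Bst2 hold a second match that overlaps or lies near the one shown.

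Class I histocompatibility genes, which present peptides to T cells, had 2 called among 24 tested, both lower in SHR. Over all genes tested, 0.194% were called lower. RT1-CE3 (gene 414793) was at 14.2, 15.9 and 23.5 CPM in WKY and 2.36, 2.39 and 1.55 CPM in SHR (log2 -3.04, SE 0.26, edgeR adjusted p 0.00171). RT1-N2 (gene 360323) was at 4.3, 8 and 5.78 CPM in WKY and 0.471, 0.611 and 0.179 CPM in SHR (log2 -3.84, SE 0.51, edgeR adjusted p 0.0213). The call of RT1-CE3 held in all 6 fits without 1 library and was lost with only the 6 samples at 5 days (adjusted p 0.0601), and that of RT1-N2 in 2 (adjusted p of up to 0.126). RT1-CE4, a close relative, went the other way at 2.49, 2.43 and 3.43 CPM in WKY and 10.4, 10.3 and 5.74 CPM in SHR, with no overlap, and missed the threshold (log2 1.69, SE 0.29, edgeR adjusted p 0.057). RT1-CE5 was at 50, 115 and 72.2 CPM in WKY and 27, 27.7 and 19.2 CPM in SHR (log2 -1.70, SE 0.31, edgeR adjusted p 0.0691). These genes belong to a family of close copies that vary between strains, and their levels are uncertain for the reason given for Rpl30. Whether reads were assigned to another copy was not tested for them.

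Genes of cholesterol synthesis were at higher values in SHR, with no gene called. Of 26 tested, 23 had positive log2 fold changes, with a median of 0.58 (0.47 in batch 1 and 0.86 in batch 2). In 13 of the 26, all SHR libraries lay above all WKY libraries, against 4.72% of all genes tested. Msmo1, a sterol oxidase, was at 126, 87.3 and 134 CPM in WKY and 209, 211 and 258 CPM in SHR (log2 0.97, SE 0.32, edgeR adjusted p 0.336). Sc5d, a sterol desaturase, was at 58.4, 43.7 and 97.9 CPM in WKY and 74.2, 71.2 and 177 CPM in SHR and overlapped across batches (log2 0.63, SE 0.19, edgeR adjusted p 0.261). Lss, which closes the sterol ring, went the other way at 91, 131 and 92.1 CPM in WKY and 62.6, 64.3 and 71.9 CPM in SHR, with all SHR libraries below all WKY libraries (log2 -0.66, SE 0.21, edgeR adjusted p 0.305). With WKY replicate 1 as the only WKY library, the median of the list was 0.198. Genes of fatty acid uptake and synthesis had no common direction, with 10 of 20 positive. Fasn, fatty acid synthase, was at 113, 115 and 269.8 CPM in WKY and 165, 172 and 534 CPM in SHR (log2 0.72, SE 0.24, edgeR adjusted p 0.322), and the lipase Lpl was at 19.7, 55.3 and 12.4 CPM in WKY and 4.03, 3.77 and 6.04 CPM in SHR, below WKY in every library (log2 -2.66, SE 0.77, edgeR adjusted p 0.253).

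In the growth factor pathways no gene was called, and ligands and receptors did not share 1 direction. In the FGF list (19 tested, 8 positive), the ligands Fgf7 and Fgf10, which signal from mesenchyme, were lower and their receptor gene Fgfr2 higher. Fgf7 was at 352, 270.1 and 175 CPM in WKY and 129, 115 and 23.9 CPM in SHR (log2 -1.88, SE 0.45, edgeR adjusted p 0.165). Fgf10 was at 7.38, 14.3 and 15.2 CPM in WKY and 4.77, 5.4 and 1.61 CPM in SHR (log2 -1.85, SE 0.45, edgeR adjusted p 0.176). Fgfr2 was at 166, 139 and 204 CPM in WKY and 367, 353 and 310.0 CPM in SHR (log2 1.05, SE 0.28, edgeR adjusted p 0.204), and none of these 3 overlapped between strains. In the FGF list, 1 of 19 lay above WKY in every library and 4 below, against 4.72% and 4.8% of all genes tested. Fgfr3, the receptor that restrains chondrocyte proliferation, was at 27.3, 26.2 and 91.5 CPM in WKY and 80.4, 77.6 and 225 CPM in SHR, higher in SHR within each batch (log2 1.46, SE 0.39, edgeR adjusted p 0.215).

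In the Wnt list (36 tested, 17 positive), Sfrp1, a secreted Wnt antagonist, was at 109, 131 and 48.8 CPM in WKY and 9.64, 9.98 and 3.53 CPM in SHR (log2 -3.70, SE 0.83, edgeR adjusted p 0.136). The receptor Fzd6 was at 1.42, 3.46 and 1.66 CPM in WKY and 9.11, 9.07 and 10.6 CPM in SHR (log2 2.14, SE 0.49, edgeR adjusted p 0.145), and Lgr5, a receptor of R-spondins, at 12.8, 19.4 and 14.4 CPM in WKY and 4.71, 4.07 and 1.73 CPM in SHR (log2 -2.16, SE 0.52, edgeR adjusted p 0.165). These 3 did not overlap. In the Wnt list, 4 of 36 lay above WKY in every library and 3 below, against 4.72% and 4.8% of all genes tested. Ror2, a Wnt receptor of growing cartilage that was named after its values were seen, was at 95.9, 90.2 and 183 CPM in WKY and 157, 159.5 and 304 CPM in SHR, higher in SHR within each batch (log2 0.75, SE 0.13, edgeR adjusted p 0.0646). In the TGF-beta and BMP list (38 tested, 22 positive), 1 gene lay above WKY in every library and 3 below. Of the 3, the co-receptor Tgfbr3 was at 62, 82.6 and 32.9 CPM in WKY and 20.1, 16.1 and 11.8 CPM in SHR (log2 -1.82, SE 0.43, edgeR adjusted p 0.16). Nog, noggin, a secreted antagonist of BMPs, was at 1.17, 3.66 and 12.2 CPM in WKY and 7.91, 7.54 and 26.1 CPM in SHR (log2 1.48, SE 0.38, edgeR adjusted p 0.194). Of 11 Notch genes tested (median 0.59), 4 lay above WKY in every library and 2 below, against 4.72% and 4.8% of all genes tested. The 4 include the target genes Hey2 at 1.47, 1.08 and 2.75 CPM in WKY and 5.6, 5.81 and 10.8 CPM in SHR (log2 2.10, SE 0.46, edgeR adjusted p 0.128) and Hey1 at 0.391, 0.464 and 0.915 CPM in WKY and 2.2, 2.44 and 1.26 CPM in SHR (log2 2.10, SE 0.78, edgeR adjusted p 0.399), both at low levels. In the IGF and postnatal growth list (28 tested, 9 positive), Igf1 was at 308, 370.4 and 102 CPM in WKY and 115, 111 and 10.7 CPM in SHR (log2 -1.95, SE 0.89, edgeR adjusted p 0.533) and 0 genes were called.

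Limb patterning transcription factors had 1 called gene among 38 tested (median -0.24, -0.136 without SHR replicate 1 and -0.137 without WKY replicate 2). Over all genes tested, 0.343% were called. Irx3 (gene 307721), a homeobox gene of limb bud and joint, was at 17.3, 20.2 and 45.1 CPM in WKY and 7.54, 5.81 and 6.88 CPM in SHR, with no overlap (log2 -1.93, SE 0.30, edgeR adjusted p 0.0332). Its chromosomal neighbour Irx5 was at 6.3, 12.3 and 38.4 CPM in WKY and 6.02, 5.91 and 9.81 CPM in SHR and was not called (log2 -1.12, SE 0.31, edgeR adjusted p 0.242). En1, a homeobox gene of ventral limb, was at 6.5, 5.99 and 4.23 CPM in WKY and 0.838, 1.43 and 0.718 CPM in SHR (log2 -2.49, SE 0.62, edgeR adjusted p 0.178), and Shox2, a homeobox gene of the upper limb skeleton, was at 23, 12.7 and 39.4 CPM in WKY and 33.3, 31.7 and 70.7 CPM in SHR, higher in SHR within each batch (log2 0.86, SE 0.21, edgeR adjusted p 0.161). Irx3 was called in 1 of the 6 fits without 1 library, at adjusted p-values of up to 0.21, and had an adjusted p of 0.141 with the averaged pair.

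Since SHR is a model of high blood pressure, genes of its hormones and receptors were read in these cells. Of 27 tested, 0 were called, 18 had negative log2 fold changes (median -0.52, -0.096 without WKY replicate 2), and in batch 1 alone the median of the values was -0.046. Agtr1a, the angiotensin II receptor, was at 24, 53.3 and 5.38 CPM in WKY and 13.5, 12.8 and 0.538 CPM in SHR (log2 -1.79, SE 0.64, edgeR adjusted p 0.379). Npr3, the clearance receptor of natriuretic peptides, was at 39.4, 212 and 137 CPM in WKY and 396, 378 and 212 CPM in SHR (log2 1.33, SE 0.51, edgeR adjusted p 0.422), and Npr2, the receptor through which C-type natriuretic peptide drives endochondral growth, at 76.5, 145 and 222 CPM in WKY and 139.8, 147 and 140.0 CPM in SHR (log2 0.06, SE 0.26, edgeR adjusted p 0.976). Its ligand Nppc was at 0.147, 0 and 0.229 CPM in WKY and 0.105, 0 and 0 CPM in SHR and was not tested. Cd36, a fatty acid transporter known to be defective in some SHR colonies, was at 2.44, 1.24 and 0.4 CPM in WKY and 0.628, 0.56 and 0.837 CPM in SHR (log2 -0.97, SE 0.86, edgeR adjusted p 0.828), and Endog, a mitochondrial nuclease linked to heart mass in SHR, at 4.59, 4.23 and 4.69 CPM in WKY and 1.57, 2.34 and 2.21 CPM in SHR, below WKY in every library (log2 -1.14, SE 0.23, edgeR adjusted p 0.104).

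Summed cell cycle genes had no common order of the strains. They came to 4715, 1413 and 3279.5 CPM in WKY and 1803, 1762 and 3942 CPM in SHR, with WKY replicate 2 lowest and WKY replicate 1 highest. Their median log2 fold change was -0.28 over 31 tested (0 called), -0.73 in batch 1 and 0.42 in batch 2, with 0.188 without WKY replicate 1, -0.637 without WKY replicate 2, -0.925 without SHR replicate 3, and -0.0566 and -0.0703 without SHR replicates 1 and 2. Actomyosin and YAP target genes had a median of 0.38, 0.568 without WKY replicate 1 and 0.244 without WKY replicate 2 (21 tested, 0 called), of opposite sign in the batches (0.49 in batch 1 and -0.15 in batch 2). Ctgf, a secreted YAP target, was at 915, 946 and 3642 CPM in WKY and 4215, 4141 and 4472 CPM in SHR, with WKY replicate 3 near SHR (log2 1.59, SE 0.52, edgeR adjusted p 0.318). The plot of gene lists sets these medians beside the share of members without overlap.

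**Figure D3:**
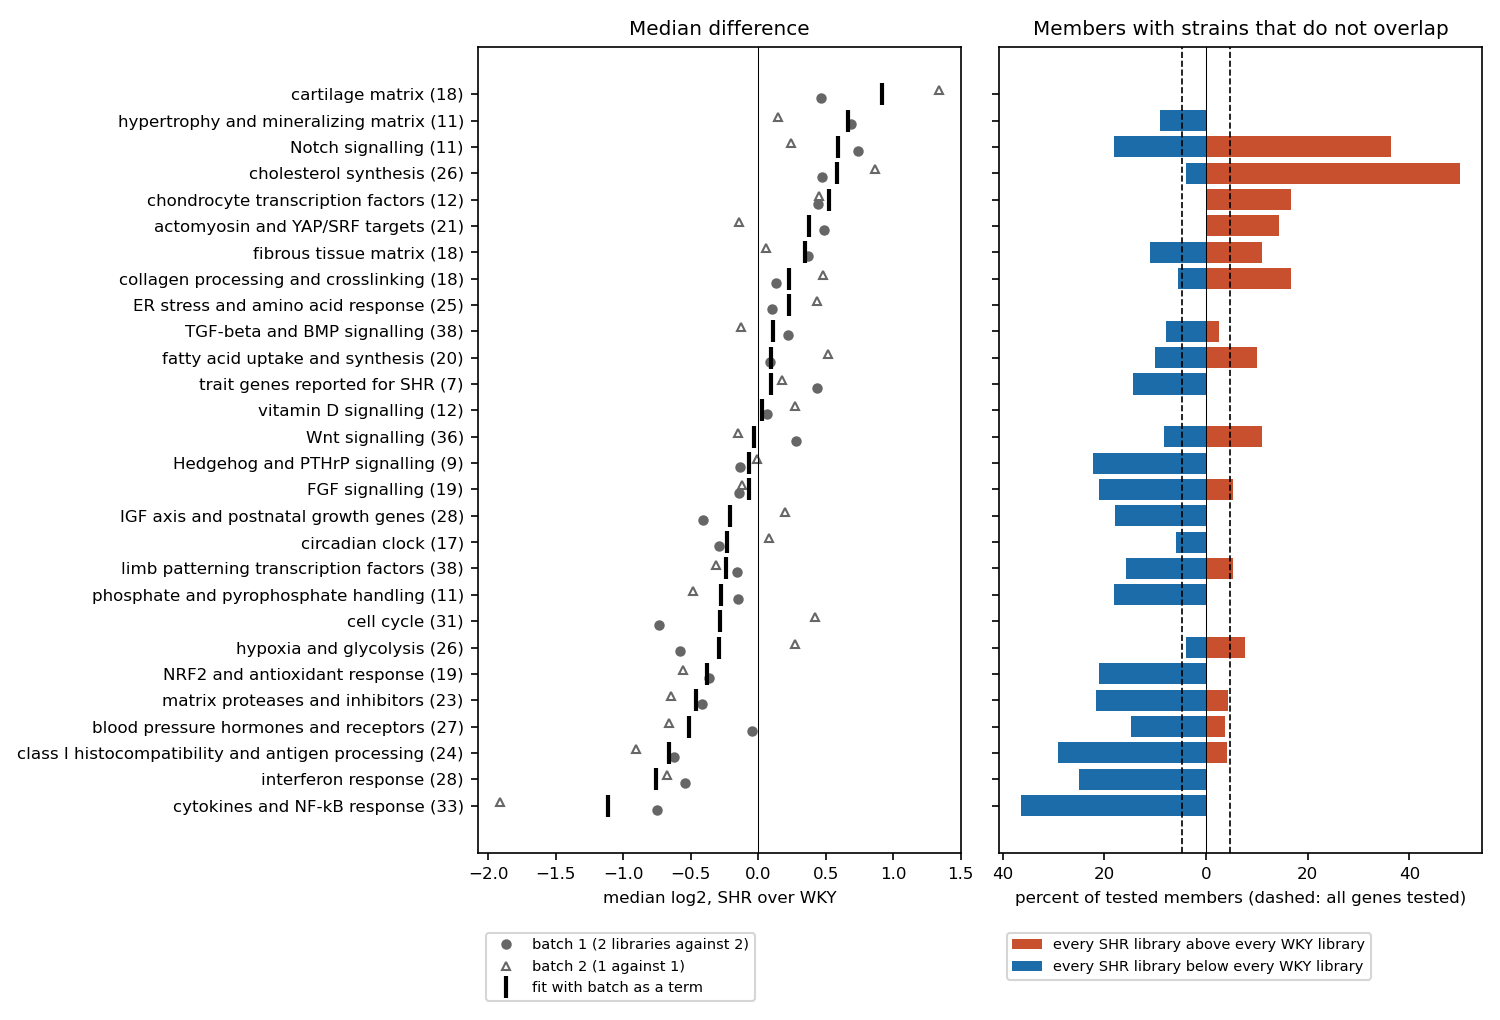
Left, median log2 fold change (SHR over WKY) of each gene list at 5 days within batch 1 (circles), within batch 2 (triangles) and from the model (bars), with the number of genes tested in brackets. Right, percent of tested members with every SHR library above (red) or below (blue) every WKY library, where dashed lines mark 4.72% and 4.8% for all genes tested; 13 of 26 cholesterol synthesis genes lie above and 12 of 33 cytokine genes below.

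The same strain comparison at 3 months, which shares no library with that at 5 days, called 48 genes (0.358%). The sign at 3 months matched in 42 of the 46 genes, and 26 were called at both ages. Both ages were tested in the same fit, with a shared spread and batch term per gene, so their calls are not independent. The share of matching signs over all genes tested was not counted. Whether a strain difference itself changed with age was tested as an interaction over all genes. By edgeR 0 genes were called (569, or 4.25%, at an unadjusted p under 0.05, smallest adjusted p 0.0939), and DESeq2 called 34. The values at 5 days that chose the genes below also enter the interaction, so its size is a description for them.

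Sema3e had the smallest interaction p of the called genes (log2 1.54 (SE 0.20), unadjusted p 2.09e-05, edgeR adjusted p 0.0939). At 3 months it was at 21, 30 and 48.6 CPM in WKY and 21.1, 24.2 and 36.3 CPM in SHR, a log2 of -0.26 (SE 0.14), and the strains overlapped. Tub was at 0.886, 1.06 and 2.55 CPM in WKY and 0.944, 0.935 and 1.74 CPM in SHR at 3 months, a log2 of -0.24 (SE 0.29) (interaction unadjusted p 0.000492, adjusted p 0.668). Vdr was at 6.46, 6.67 and 41.9 CPM in WKY and 9.23, 7.01 and 39.3 CPM in SHR at 3 months, a log2 of 0.15 (SE 0.22) (unadjusted p 0.00276, adjusted p 0.876). Irx3 was at 46.6, 42.7 and 52.9 CPM in WKY and 33.2, 18.7 and 32.4 CPM in SHR, a log2 of -0.76 (SE 0.28) (unadjusted p 0.0172, adjusted p 0.944). Slc17a9 and Sh2d4a had log2 values of 0.34 (SE 0.25) and 0.76 (SE 0.24) at 3 months. In contrast, Enpp1 was at 552, 443 and 1063 CPM in WKY and 177, 169 and 432 CPM in SHR, a log2 of -1.46 (SE 0.17), and Septin5 had a log2 of 2.58 (SE 0.24). Mettl2b, Atp11b and Poll had log2 values of 2.70 (SE 0.20), -3.18 (SE 0.23) and 0.91 (SE 0.16) at 3 months. Tnmd had no counts in any library at 3 months, so no fold can be given there. The plot of both ages shows the values side by side.

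**Figure D4:**
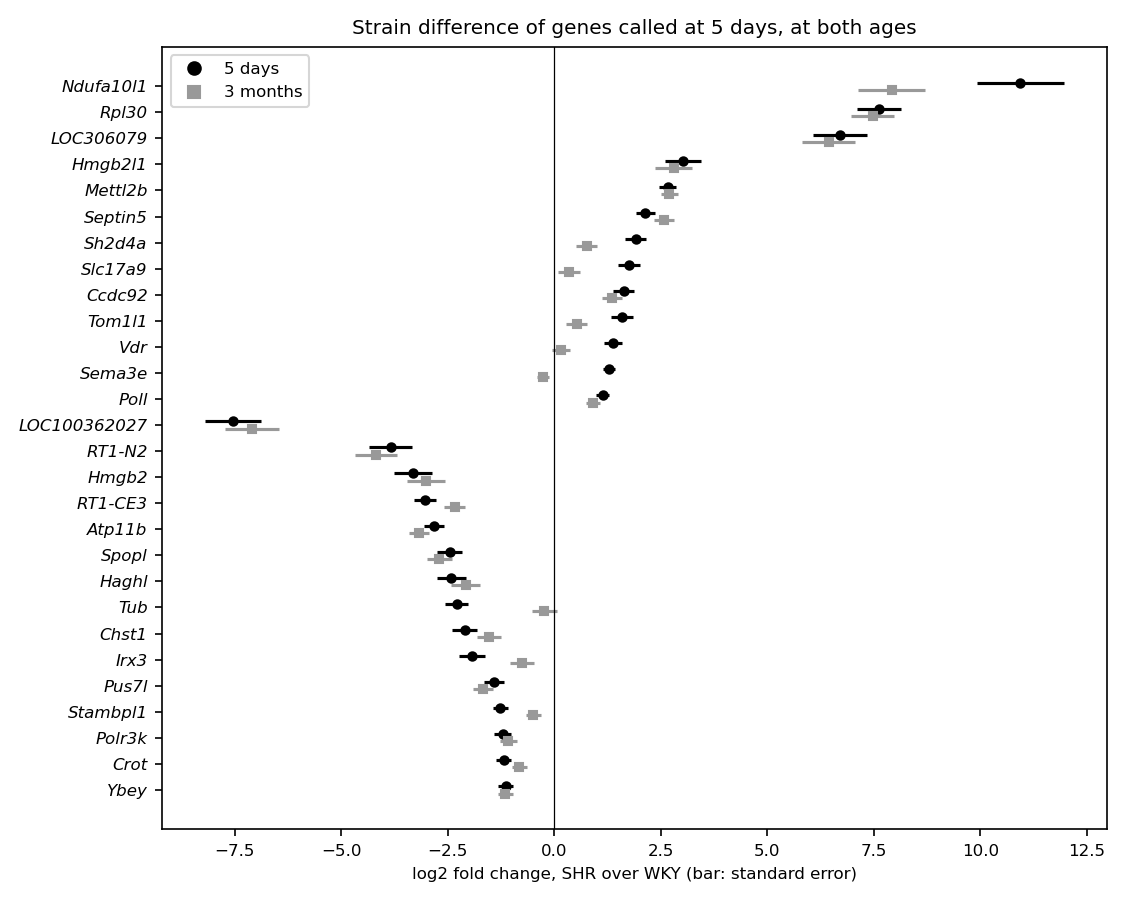
Log2 fold change of SHR over WKY with its standard error (bars) for genes called at 5 days, at 5 days (black circles) and at 3 months (grey squares), without Tnmd, which had no counts at 3 months. Sema3e and Tub lie near 0 at 3 months, while Mettl2b, Septin5 and Atp11b keep their side.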

How the data were processed

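RNA of primary chondrocyte cultures was sequenced as paired reads of 100 bases. The authors deposited 1 table of expected counts, of which 9.17% were not whole numbers. Per the submitters' processing notes, the tools were RSEM 1.2.28, Bowtie2 2.4.4 and DESeq2 1.42.1, on the assembly Rnor_6.0. The annotation, strandedness and filters are not given in the sources used here. The authors also deposited log2 expression tables in which the means of both batches are equal per gene. That of the 5-day samples was used as an alternative only.

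Expected counts were rounded and tested in R 4.3.3 with edgeR 4.0.16 (robust quasi-likelihood test, TMM scaling, filterByExpr by group). The model held all 12 libraries, 4 groups of 3, with batch as a term, and tested 13397 genes with Benjamini-Hochberg adjustment, called under 0.05. Standard errors come from the test statistic. CPM are counts scaled by TMM library size. Values within a batch are log2 ratios of mean CPM with 0.5 added. Total counts of 17839101 to 20358123 per library set the precision of each value, and counting intervals (95%) and floors of 3 counts cover counting error only. The test was tested on simulated data. Same-numbered replicates of the strains deviated together (correlations of 0.108, 0.57 and 0.666), which the shared batches also give, and SHR replicate 1 correlated more with WKY replicate 2 (0.558). That check cannot tell pairs by number from the shared batches. Results with the replicate number as a block therefore stand beside the calls as an alternative. The labels do not say what a number shares.

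Genes and lists were chosen with earlier results of these data known. Named were called genes with a symbol that is not provisional, at least 5 CPM in the higher strain and the same direction in both batches (up to 15 in each direction), genes called in each of the 6 fits without 1 library, up to 4 members of each list by smallest p, and a fixed set. Some genes that this rule names are not reported here. Members named by smallest p were chosen on these values, so their lack of overlap is selected too. Lists were described by counts and medians, without a test. Promoters, matched by gene identifier for 12756 genes of the table, are RefSeq sequences on GRCr8, a later assembly than that of the counts. Other fits used another scaling, DESeq2 1.42.0 or limma 3.58.1 as the test, other filters, no batch term, fewer libraries or the log2 table.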

Additional observations from a re-analysis of the deposited data

How the results depend on the processing

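The strain difference at 5 days gave 46 called genes, and 47 with RLE size factors, 44 without TMM (15 higher and 29 lower), 53 with limma-voom and 47 with either other filter. The count was 381 with DESeq2, 81 with limma on the deposited log2 table, 22 in batch 1 alone (16 higher and 6 lower), 16 with the replicate block, 15 without WKY replicates 2 and 3 at 5 days, 13 with only the 6 samples at 5 days (9 higher and 4 lower, 5 of them among the 46), 11 without a batch term and 8 with SHR replicates 1 and 2 averaged. Leaving out 1 library gave 6 to 89. With the averaged pair and only the samples at 5 days, an alternative chosen after seeing the data, edgeR called 0 (690 at an unadjusted p under 0.05). For the interaction, 0 genes were called by edgeR and limma-voom, against 34 with DESeq2 and 1 in batch 1 alone, and leaving out 1 library gave 0 to 1. The cause of these shifts was not tested.

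Of 106 single genes, only Npr2 changed sign, from a log2 of 0.06 to -0.0063 without TMM, -0.0530 without a batch term, -0.0548 with the averaged pair, -0.0708 with that pair and only the samples at 5 days, and -0.20 to 0.34 without 1 library. Over 2119 values, 351 lost a call and 75 gained one, 42 of them with DESeq2. Of 660 list medians, 49 moved by more than the spread between replicates, 16 of them without WKY replicates 2 and 3. With 3 libraries a strain and a pair that lay close together, genes of wide spread such as Col2a1 or Acan could differ by several fold and not pass.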

Other observations

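Other gene groups held single genes in which the strains did not overlap, and 0 of their members were called by edgeR. Of 19 NRF2 and antioxidant genes tested, 4 lay below WKY in every SHR library, against 4.8% of all genes tested, with a list median of -0.38 (-0.36 in batch 1 and -0.56 in batch 2). Nqo1, a quinone reductase and NRF2 target, was at 92.7, 107 and 242 CPM in WKY and 47.1, 47.8 and 54 CPM in SHR (log2 -1.64, SE 0.61, edgeR adjusted p 0.405). Mt2A, a metallothionein, was at 164, 459 and 127 CPM in WKY and 78.2, 91.2 and 13.9 CPM in SHR (log2 -2.08, SE 0.95, edgeR adjusted p 0.533). Adm, adrenomedullin, a vasodilator peptide induced by hypoxia, was at 35.7, 86.2 and 26.3 CPM in WKY and 15.4, 15.9 and 3.41 CPM in SHR (log2 -2.16, SE 0.48, edgeR adjusted p 0.128). The median of the 26 genes of hypoxia and glycolysis tested differed in sign between batches (-0.58 in batch 1 and 0.27 in batch 2). The 25 genes of the ER stress and amino acid response had a median of 0.23 (0.0846 without SHR replicate 3), with 20 positive and 0 free of overlap.

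A few genes outside any list, named after their values were seen, also separated the strains without passing the threshold. Ebf1, a transcription factor of stromal and fat progenitors, was at 35.1, 76 and 71.8 CPM in WKY and 18, 15 and 12.3 CPM in SHR (log2 -2.01, SE 0.35, edgeR adjusted p 0.0601). Medag, a gene of fat cell differentiation, was at 83.1, 127 and 41.9 CPM in WKY and 30.7, 34.4 and 24.8 CPM in SHR (log2 -1.40, SE 0.25, edgeR adjusted p 0.0645). Among markers of other cell types, Mcam, an adhesion molecule of pericytes, was at 4.25, 9.6 and 48.6 CPM in WKY and 50.9, 47.9 and 127 CPM in SHR (log2 2.30, SE 0.51, edgeR adjusted p 0.132), with overlap across batches and SHR higher within each. Its list of pericyte and smooth muscle markers had no common direction, with 4 positive and 4 negative of 8 tested (median 0.07). Des, of the same list, lay below WKY in every SHR library (log2 -2.52, SE 0.74, edgeR adjusted p 0.258). Krt8, a keratin of simple epithelia, was at 1.17, 1.5 and 1.77 CPM in WKY and 3.98, 3.87 and 11.1 CPM in SHR (log2 1.93, SE 0.56, edgeR adjusted p 0.254), with no overlap.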
